A study of Danio rerio with 24 samples.

Results

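The enzymes that make glutathione and the transferases that attach it to other molecules were followed in zebrafish liver during exposure to mercuric chloride (HgCl2). Members were the probes whose gene symbol names a cytosolic glutathione S-transferase class (gst followed by a, k, m, o, p, r, t or z) or is gclc, gclm, gsr or gss. The rule found 5 genes, each with 1 probe, among 16340 probes tested, of which 5916 carry 1 gene symbol. These are gclc, gclm, gstp1.2, gstt1b and gsto1. Among zebrafish genes of RefSeq, 21 match the rule, and 17 of them are transferases. Of those 17 genes, 3 had a probe with 1 gene symbol. The alpha, kappa, mu, rho and zeta classes, glutathione reductase (gsr) and glutathione synthetase (gss) had none and were not read here. Below, a gene counts as on the array, or as having a probe, only where a probe carries its symbol alone. Probes with no symbol or several symbols could still read other genes of the rule or of the lists.

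Adult fish aged 6 months to 1 year, obtained from a farm, were kept in water with 200 µg/L HgCl2 or without it (control). Livers were taken after 8, 24, 48 and 96 h, which gave 8 groups of 3 arrays, and each array carried RNA pooled from the livers of 4 fish. The liver RNA was labelled with Cy5 and hybridised to a glass array of spotted oligonucleotides. Beside it went a Cy3-labelled common reference, pooled from total RNA of wild-type males and females. Which sexes went into a pool was not stated, and the dyes were never swapped. Every value below is a normalised log2 ratio of Cy5 to Cy3 unless another scale is named, and every difference is HgCl2 minus the control of the same time, ± the standard error (SE) of limma's fit over the 24 arrays. A probe was called at a Benjamini-Hochberg adjusted p under 0.05 over all 16340 probes.

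Glutathione is a small thiol peptide made in abundance by hepatocytes, and inorganic mercury binds to its sulfur atom. Its synthesis starts with glutamate-cysteine ligase, whose catalytic subunit is encoded by gclc and whose modifier subunit, which raises the activity of the catalytic one, is encoded by gclm. Glutathione S-transferases join the peptide to electrophiles so that the product can be exported. The genes of both steps include well-known targets of Nrf2, a transcription factor released from Keap1 when thiols of Keap1 react.

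Over the array as a whole, the median Cy5 intensity lay between 251 and 893, and 88.6% to 99.8% of spots had a Cy5 median above background. Log ratios of arrays within a group correlated with r of 0.292 to 0.713. Of 15 liver parenchyma markers, 5 had a probe with 1 gene symbol. Others were not read here, among them fga, which the paper reports from these arrays. At 24, 48 and 96 h, 2, 1 and 4 of the 5 were called higher (cp, which encodes ceruloplasmin, by 1.93 at 24 h, and the apolipoprotein gene apoa1a by 1.5). Their summed Cy5 level (log2) did not overlap between control and exposed livers at any time. It was 17.75 to 17.92 in controls and 17.96 to 18.08 in exposed livers at 8 h, when no member and no marker was called. At 24 h it was 17.6 to 17.7 and 17.8 to 18.1. It was 17.6 to 17.8 and 17.9 to 18.2 at 48 h, and 17.4 to 17.7 and 18.1 to 18.3 at 96 h. These times include those at which gclm and gstp1.2 were called. Of all probes, 6.61%, 5.29% and 7.48% were called higher at 24, 48 and 96 h, and 4.23%, 3.37% and 5.42% lower. In the ratio the groups did not overlap for 17.9%, 27.8%, 29.7% and 36.5% of all probes at the 4 times. That share was not computed for Cy5 levels. Read alone, the Cy3 reference channel was called for 12.7% of all probes at 8 h and 13.6% at 96 h, so single channels also differed for the shared reference. Of 12 red blood cell markers, 4 were on the array, and 2 of these, the hemoglobin genes hbaa1 and hbba1, fell at 24, 48 and 96 h. The summed Cy5 level of the 4 was 13.6 to 14.2 in controls and 12.0 to 12.7 in exposed livers at 24 h, 12.8 to 14.6 and 11.9 to 12.5 at 48 h, and 12.2 to 12.8 and 12.2 to 12.6 at 96 h. Of the exocrine pancreas, cpa5 fell at 24 h (-1.67, adjusted p = 0.0108) and 48 h (-1.67, adjusted p = 0.0138). At 96 h, 4 of the 5 exocrine pancreas markers on the array fell (summed Cy5 level 12.4 to 12.7 in controls, 10.8 to 12.2 exposed) and 3 of 8 leukocyte markers rose (12.5 to 12.6 against 12.3 to 13), whereas cd74a fell at 24 h (-1.02, adjusted p = 0.00477) and mpeg1.1 rose at 48 h (0.82, adjusted p = 0.0342). The summed levels at 24 h were 13.4 to 13.7 in controls and 12.2 to 12.9 exposed for exocrine pancreas, and 11.96 to 12.53 and 11.59 to 11.92 for leukocytes. Of the 4 ovary markers on the array, zp3 rose at 24 h, and the summed level then was 10.7 to 11.3 in controls and 13 to 13.8 in exposed livers. It was 11.2 to 13.4 and 12.9 to 15.9 at 48 h, and 12.1 to 12.3 and 12.2 to 16.1 at 96 h. Of the 2 intestine, 4 bile duct and 2 endothelium markers on the array, 1 bile duct marker rose at 24 h and no other was called at a single time. Even so, the summed bile duct level at 96 h was 11.3 to 11.9 in controls and 12.9 to 13.5 in exposed livers. The summed endothelium level was 9.83 to 10.03 in controls and 10.27 to 10.48 in exposed livers at 8 h. It was 9.75 to 9.98 and 10.01 to 10.31 at 24 h, and 9.61 to 10.04 and 10.22 to 10.43 at 96 h, and it overlapped at 48 h. In Cy5, spi1b was at or below background on 3 of 24 arrays, ptprc on 1 and sox9b on 2, and every other marker was above it on all arrays. The part of these shifts in the results below was not tested, and in pooled tissue fewer cells of a type cannot be told apart from less RNA per cell.

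The 5 probes differed widely in brightness. gstp1.2 was among the brightest, with a background-subtracted Cy5 intensity of 1754 to 16954 over the 24 arrays (median 3944.5), and 2.24% of probes were brighter. gstt1b had 1167 to 8881 (median 2364) and gclc 253 to 1910 (median 888.5). gclm lay near the middle of all probes at 39 to 1752 (median 236), and gsto1 was dim at 102 to 494 (median 199), with 72.7% of probes brighter. No member was saturated or at background in Cy5 on any array. Intensities of different probes do not rank their transcripts.

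In the exposed livers gclm and gstp1.2 rose at 48 and 96 h, by 2.46-fold to 3.81-fold, and gclc rose by 1.44-fold at 24 h. The calls of gclc at 24 h (adjusted p = 0.049, limma) and gstp1.2 at 48 h (0.0495) stood at the threshold. Both of them, and that of gclm at 96 h, were lost when single arrays were left out. gstt1b and gsto1 were called at no time. At 8 h, 0 of the 5 members were called by limma, beside 0.973% of all probes. At an unadjusted p under 0.05 the count was 1 (gstt1b), and the methods' t-test called 0 at an adjusted p under 0.05. At 24 h, 1 member (gclc) was called higher, beside 10.8% of all probes. The 48 h contrast called 2 members higher (gclm and gstp1.2), beside 8.65%, and so did the 96 h contrast (again gclm and gstp1.2), beside 12.9%. Averaged over the 4 times, 2 members (gclm and gstp1.2) were higher, beside 31.5% of all probes called and 17.7% called higher. No member was called lower at any time. An F test over the 8 groups called 2 members (gstp1.2, adjusted p = 0.00276, and gclm, adjusted p = 0.00489), beside 18.6% of all probes. With so few members, these counts are not set against the background as a result about the family.

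**Figure D1:**
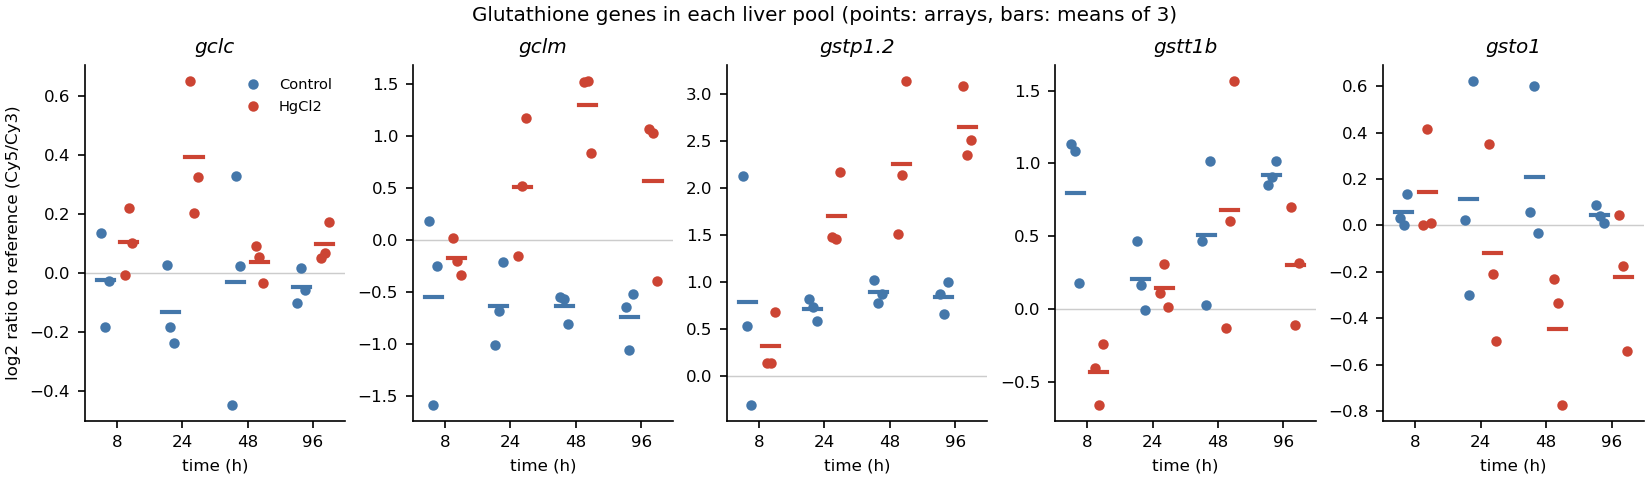
Log2 ratio of liver (Cy5) to reference (Cy3) for each of the 5 genes on each array, by time in hours, with the scale of the vertical axis set for each gene. Points are arrays, short bars are means of 3, controls are blue and HgCl2 red. For gclm and gstp1.2 all red points lie above the blue points of the same time at 24, 48 and 96 h.

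The modifier subunit gene gclm was followed first. After 8 h its log2 ratio was 0.19, -1.58 and -0.25 in the control pools and 0.02, -0.20 and -0.33 in the exposed pools. After 24 h the controls read -1.01, -0.68 and -0.21 and the exposed livers -0.15, 0.51 and 1.17. The groups overlapped at 8 h, where 1 control pool lay far below the others, and had separated by 24 h. After 48 h the values were -0.55, -0.56 and -0.80 without and 1.52, 1.52 and 0.84 with HgCl2. After 96 h they were -0.64, -1.05 and -0.51 without and 1.06, 1.03 and -0.40 with HgCl2. At both times every exposed array was above every control, although at 96 h the lowest exposed array lay close to the highest control. That array, HgCl2 replicate 3, had a normalised log2 intensity of 9.98 in Cy3, against 8.70 and 8.58 on the other exposed arrays of 96 h. Its Cy3 background was 121, against 510 and 593. Its Cy5 level was 9.59, against 9.76 and 9.61. Arrays of the 2 groups did not overlap for 27.8% of all probes at 24 h, 29.7% at 48 h and 36.5% at 96 h.

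The difference for gclm was 0.38 ± 0.41 at 8 h (adjusted p = 0.767, limma, 95% interval -0.47 to 1.22) and 1.14 ± 0.41 at 24 h (adjusted p = 0.0784, 0.29 to 1.99). At 48 h gclm was 3.81-fold higher in exposed livers (1.93 ± 0.41, adjusted p = 0.00574), and at 96 h 2.46-fold higher (1.3 ± 0.41, adjusted p = 0.0396). Averaged over the times it was 2.28-fold higher (1.19 ± 0.20, adjusted p = 0.000161). The 48 h call was kept without any 1 of its 6 arrays and lost with the methods' t-test (adjusted p = 0.087). At 96 h it did not hold without control replicate 1 (adjusted p = 0.0776), 2 (0.149) or 3 (0.0656) and without HgCl2 replicate 1 (0.138) or 2 (0.126), and it was also lost with the methods' t-test, the 6 arrays of the time alone, median centring, a replicate block (0.0532) or the authors' value table. At 24 h, gclm passed without HgCl2 replicate 1 (1.47, adjusted p = 0.0291). Read from the Cy5 channel alone, the gclm difference was 2.07 at 48 h (adjusted p = 0.0102, beside 8.9% of all probes called in Cy5) and 2.35 at 96 h (adjusted p = 0.00117, beside 22.7%). In Cy3, 0%, 38% and 45% of gclm pixels were brighter than background plus 2 SD on the control arrays of 48 h. On those of 96 h the values were 38%, 32% and 28%. The exposed arrays had 91%, 60% and 66% at 48 h and 73%, 57% and 100% at 96 h. The control array with 0% had a background-subtracted Cy3 intensity of 325 over a background of 274, so its 0% does not show a weak signal. A 0% was also recorded for gstt1b on HgCl2 replicate 1 of 24 h, at a Cy3 intensity of 1523. The called ratios of gclm thus rest on a reference signal that was weak against its background on the other control arrays of 48 and 96 h.

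The catalytic subunit gene gclc stayed close to the reference throughout. The control pools of 8 h read 0.14, -0.18 and -0.03, and the exposed pools -0.01, 0.22 and 0.10. Those of 24 h read 0.03, -0.18 and -0.24 without HgCl2 and 0.65, 0.20 and 0.33 with it. The groups overlapped at 8 h, and all exposed pools were above the controls at 24 h. The values of 48 h were -0.45, 0.33 and 0.03 in controls against 0.09, 0.05 and -0.03 in exposed livers. The values of 96 h were -0.10, 0.02 and -0.06 in controls against 0.05, 0.07 and 0.17 in exposed livers. The groups overlapped at 48 h, and at 96 h the exposed pools lay above the controls by a narrow margin.

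At 24 h gclc was 1.44-fold higher (0.52 ± 0.17, adjusted p = 0.049, limma, 95% interval 0.17 to 0.87). This call stood at the threshold. It was lost without any 1 of the 6 arrays, with adjusted p of 0.0586, 0.133 and 0.14 without control replicates 1, 2 and 3 and 0.154, 0.0508 and 0.0891 without HgCl2 replicates 1, 2 and 3. It was kept under 1 of the other settings tried, the fit with dim probes left out, and the difference in Cy5 alone at 24 h was 0.15 (adjusted p = 0.737). The intervals of the other times were -0.22 to 0.48 at 8 h, -0.28 to 0.42 at 48 h and -0.21 to 0.49 at 96 h. The average over the times was 0.22 ± 0.08 (adjusted p = 0.0547), and it passed without control replicate 1 of 8 h (0.0447), control replicate 1 of 24 h (0.0467), control replicate 2 of 48 h (0.0157) or HgCl2 replicate 2 of 24 h (0.0393).

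gstp1.2 encodes a pi-class transferase, a class that is strongly induced by electrophiles in zebrafish larvae through Nrf2. Its paralogue gstp1.1 has no probe of its own here, and whether the probe also reads that transcript was not tested. At 8 h its log2 ratio was 2.12, 0.53 and -0.31 in controls and 0.13, 0.13 and 0.68 in exposed livers. At 24 h it was 0.81, 0.73 and 0.58 in controls and 1.48, 1.46 and 2.16 in exposed livers. The groups overlapped at 8 h, where control replicate 1 alone among the controls reached the range of the later exposed livers, and all exposed livers were above the controls at 24 h. At 48 h the controls read 1.02, 0.77 and 0.87, and the exposed livers 1.51, 2.13 and 3.13. At 96 h the controls read 0.87, 0.65 and 0.99, and the exposed livers 3.09, 2.35 and 2.5. At both times the exposed livers were above all controls.

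The difference for gstp1.2 was -0.47 ± 0.43 at 8 h (adjusted p = 0.711, limma, 95% interval -1.36 to 0.42). Without control replicate 1 it was 0.20 (adjusted p = 0.883). At 24 h the difference was 0.99 ± 0.43 (adjusted p = 0.147, interval 0.10 to 1.88). The gene was 2.59-fold higher at 48 h (1.37 ± 0.43, adjusted p = 0.0495) and 3.50-fold higher at 96 h (1.81 ± 0.43, adjusted p = 0.00801), and the average over the times was 0.93 ± 0.21 (adjusted p = 0.00232). The 96 h call was kept without any 1 of its arrays and lost with scale normalisation between arrays (1.03, adjusted p = 0.206), which moved the value by over 1.5 times. At 48 h it did not hold without control replicate 1 (adjusted p = 0.0978), 2 (0.145) or 3 (0.0905) and without HgCl2 replicate 2 (0.0856) or 3 (0.201). This call was also lost with no background correction (0.0579), the authors' value table (0.112), scale normalisation (0.102), Cy5 alone (0.197), a replicate block (0.06), the 6 arrays of the time alone (0.0611) and the methods' t-test (0.251).

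Among exposed livers alone, gstp1.2 differed between the times (F test, adjusted p = 0.0204), beside 1.22% of all probes, and it was the 1 member that did. In Cy5 alone this difference between times was not called (adjusted p = 0.122), and its Cy3 level differed between control times (adjusted p = 0.037). The difference between HgCl2 and control was higher at 96 h than at 8 h by 2.27 ± 0.60, which was not called (adjusted p = 0.0704, limma), by 2.82 without control replicate 3 of 8 h (adjusted p = 0.01) and by 1.6 without control replicate 1 of 8 h (adjusted p = 0.128), the array that stood high. With scale normalisation it was 1.48 (adjusted p = 0.357). Of the 5 members, 0 were called for this change, beside 0.991% of all probes, with 1 at an unadjusted p under 0.05 (gstp1.2). In Cy5 alone, 2 members were called, gstp1.2 at 2.78 (adjusted p = 0.00624) and gstt1b at 1.82 (adjusted p = 0.0107), beside 24.6% of all probes. Between control times 0 of the 5 members differed in the ratio (F test, beside 0.049% of all probes, 0 at an unadjusted p under 0.05, lowest adjusted p = 0.733 for gstt1b). In Cy5 alone gstt1b differed between control times (adjusted p = 0.0214), as did 18.3% of all probes.

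gstt1b encodes a theta-class transferase, a class that acts on small halogenated molecules. Its controls of 8 h read 1.13, 1.08 and 0.18, and its exposed livers -0.41, -0.66 and -0.24. By 24 h the ratios were 0.47, 0.16 and -0.01 (control) against 0.11, 0.31 and 0.01 (HgCl2). All exposed livers lay below the controls at 8 h, and the groups overlapped at 24 h. By 48 h they were 0.47, 0.03 and 1.02 (control) against -0.13, 0.60 and 1.56 (HgCl2). By 96 h they were 0.85, 0.90 and 1.01 (control) against 0.70, -0.11 and 0.32 (HgCl2). The groups overlapped at 48 h, and all exposed livers lay below the controls at 96 h. Groups without overlap, in either direction, were found for 17.9% of probes at 8 h.

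The difference in the gstt1b ratio was -1.23 ± 0.33 at 8 h (adjusted p = 0.08, limma, 95% interval -1.93 to -0.54), -0.06 ± 0.33 at 24 h (adjusted p = 0.937), 0.17 ± 0.33 at 48 h (adjusted p = 0.804) and -0.62 ± 0.33 at 96 h (adjusted p = 0.227, interval -1.31 to 0.07). None of the times was called. At 8 h it passed with the authors' value table (-1.27, adjusted p = 0.0492) and with scale normalisation between arrays (-1.29, adjusted p = 0.0482). The average over the times was -0.44 ± 0.17 (adjusted p = 0.0501). It passed with median centring (0.0483), the authors' value table (0.0377), scale normalisation (0.0186) and dim probes left out (0.0397), each time as lower. It also passed without control replicate 3 of 8 h (0.0202), 3 of 24 h (0.0497) or 2 of 48 h (0.0304) and without HgCl2 replicate 3 of 48 h (0.00636) or 1 of 96 h (0.0339).

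For gstt1b the direction depended on the channel. The Cy3 channel, which held the same reference RNA by design, gave 9.33, 9.07 and 9.52 (log2 intensity) on the control arrays of 96 h and 11.1, 11.7 and 11.3 on the exposed arrays, with no overlap. It was 4.14-fold brighter there on exposed arrays (2.05 ± 0.35, adjusted p = 0.000527), beside 13.6% of all probes called in Cy3 at 96 h. The liver channel was higher there as well, with Cy5 levels of 10.2, 9.97 and 10.5 in controls and 11.8, 11.6 and 11.6 in exposed livers (1.43 ± 0.34, adjusted p = 0.00401). So the ratio was lower at 96 h while the Cy5 level was higher, and averaged over the times Cy5 alone gave 0.48 (adjusted p = 0.0366, beside 31.9% of all probes) against -0.44 for the ratio. At 8 h both readings were negative, with -0.39 ± 0.34 in Cy5 alone (adjusted p = 0.459) beside 0.84 ± 0.35 in Cy3 (adjusted p = 0.108). Mean Cy3 on control arrays was 10.91, 10.91, 10.65 and 9.31 from 8 to 96 h (F test over control times, adjusted p = 0.00451). Mean Cy5 in controls was 11.71, 11.12, 11.16 and 10.23. The exposed means of 96 h lay between those of earlier exposed times, with 11.36 in Cy3 (10.86 at 24 h, 11.75 at 8 h). In Cy5 the exposed mean was 11.66 (11.31 at 8 h, 12.15 at 48 h). The controls of 96 h were thus low in both channels. Control replicate 3 of 48 h was also low, at 9.58 in Cy3 and 10.60 in Cy5. The other controls of 48 h had 11.12 to 11.25 in Cy3 and 11.15 to 11.72 in Cy5. What set the Cy3 signal was not tested. The direction of gstt1b in the exposed liver at 96 h is therefore not settled by these arrays.

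**Figure D2:**
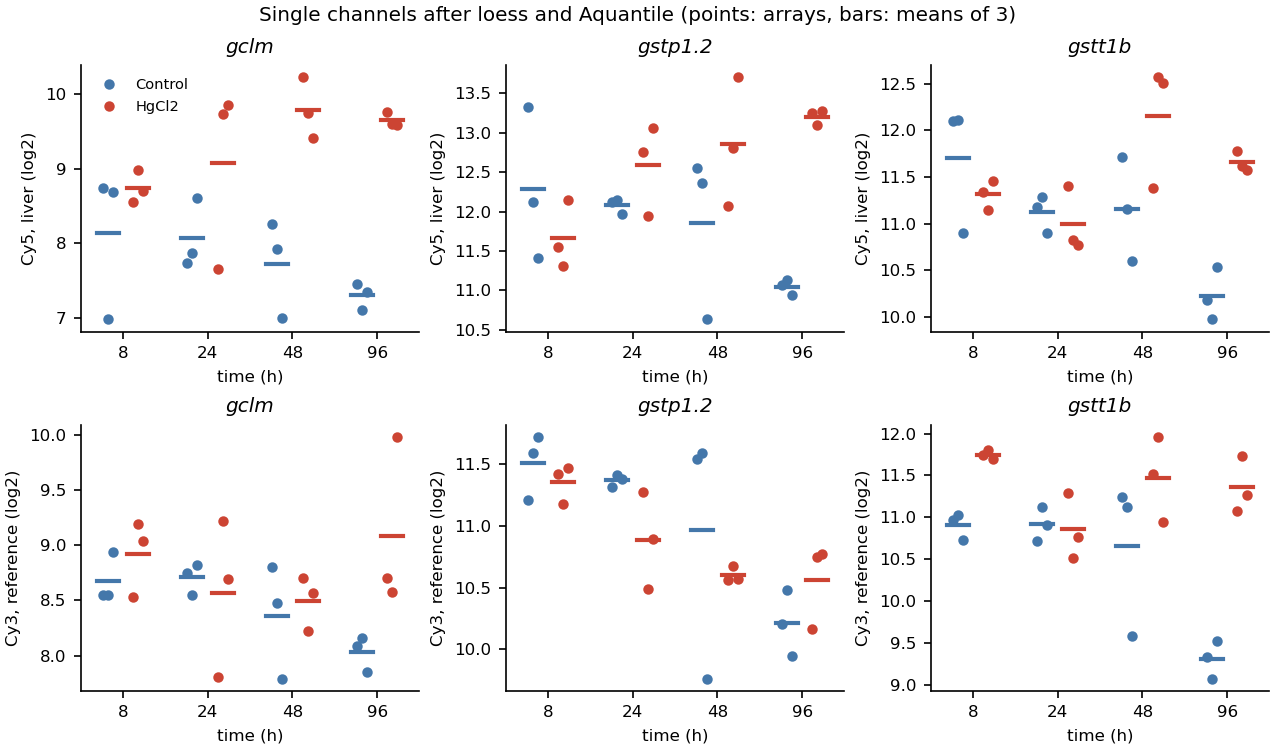
Normalised log2 intensity of the liver channel (Cy5, upper row) and of the reference channel (Cy3, lower row) for gclm, gstp1.2 and gstt1b on each array, by time in hours. Points are arrays, short bars are means of 3, controls are blue and HgCl2 red. At 96 h both channels of gstt1b were higher on the 3 exposed arrays, the Cy3 level by 2.05.

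At 96 h the reference channel moved less for gclm and gstp1.2 than for gstt1b. That of gclc was lower on exposed arrays of 8 h (-0.70 ± 0.23, adjusted p = 0.0463, beside 12.7% of all probes). At 24 h, where the gclc ratio was called, the Cy3 difference was -0.37 (adjusted p = 0.685, limma) and the Cy5 difference 0.15 (adjusted p = 0.737). Those of gstp1.2 at 24 h were -0.48 in Cy3 (adjusted p = 0.755, limma) and 0.51 in Cy5 (adjusted p = 0.603). For gstp1.2 the Cy3 difference at 96 h was 0.35 ± 0.35 (adjusted p = 0.572), and the Cy5 difference was 2.16 ± 0.47 (adjusted p = 0.00203). For gclm the Cy3 difference at 96 h was 1.05 ± 0.36 (adjusted p = 0.0528), in the same direction as Cy5. The controls of 96 h were the lowest controls in both channels for these genes too. From 8 to 96 h the control means of gstp1.2 were 12.29, 12.08, 11.85 and 11.05 in Cy5 and 11.51, 11.37, 10.96 and 10.21 in Cy3. Those of gclm were 8.13, 8.07, 7.72 and 7.30 in Cy5 and 8.68, 8.71, 8.36 and 8.03 in Cy3. Differences in Cy5 alone at 96 h, and changes up to it, are read against these low controls. For gstp1.2 at 48 h the Cy5 difference was 1.01 ± 0.47 (adjusted p = 0.197), and 1 control array, replicate 3, was low in both channels (10.63 in Cy5 and 9.76 in Cy3, against 12.36 to 12.56 and 11.54 to 11.59 on the other 2).

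**Figure D3:**
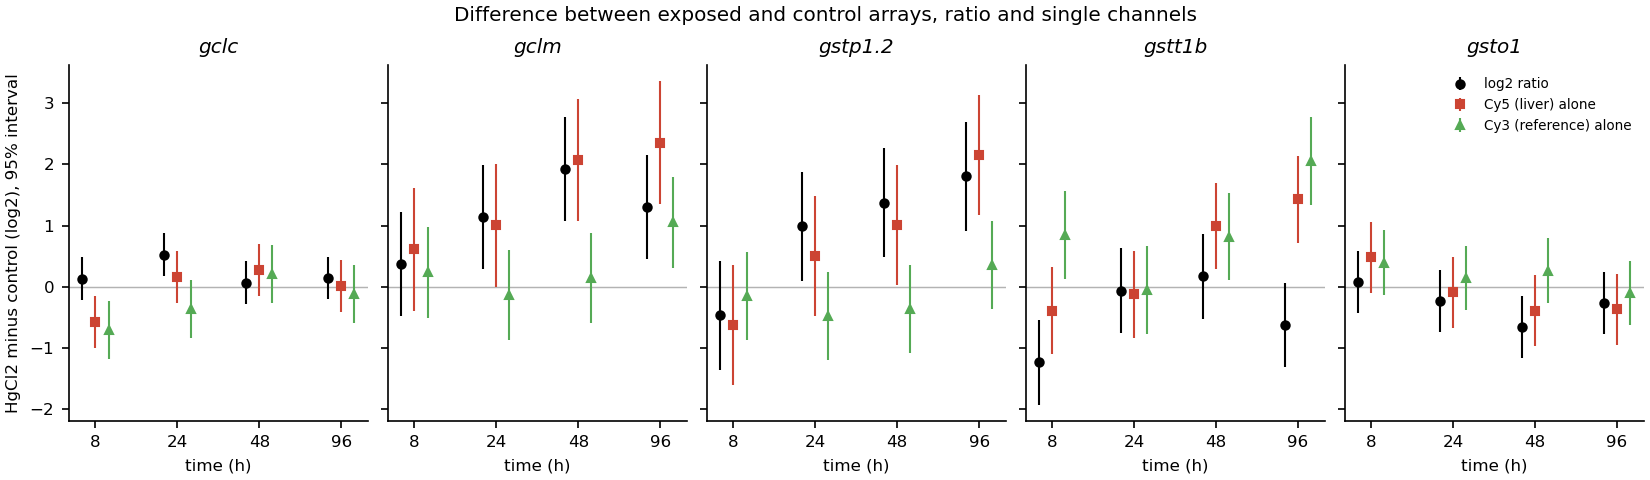
Difference between HgCl2 and control (log2) for each gene by time in hours, with 95% intervals of the fit. Black circles are the ratio, red squares the liver channel (Cy5) alone and green triangles the reference channel (Cy3) alone. The ratio for gclm was 1.93 at 48 h and that for gstp1.2 was 1.81 at 96 h, and for gstt1b the Cy5 point at 96 h lies above 0 and the ratio below it.

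gsto1 encodes an omega-class transferase, which in mammals reduces disulfides and dehydroascorbate more than it conjugates. Its log2 ratio after 8 h was 0.03, 0.00 and 0.14 in controls, and 0.00, 0.42 and 0.01 with HgCl2. Its ratio at 24 h was 0.02, -0.30 and 0.62 in controls, and 0.35, -0.21 and -0.50 with HgCl2. The groups overlapped at both times. Its ratio at 48 h was 0.06, 0.60 and -0.03 in controls, and -0.23, -0.33 and -0.77 with HgCl2. Its ratio at 96 h was 0.09, 0.04 and 0.01 in controls, and 0.05, -0.18 and -0.54 with HgCl2. All exposed livers lay below the controls at 48 h, and the groups overlapped at 96 h. The difference at 48 h was -0.66 ± 0.24 (adjusted p = 0.0974, limma) and none of the times was called, while the average was -0.27 ± 0.12 (adjusted p = 0.1) and passed without control replicate 2 of 24 h (0.0498) or HgCl2 replicate 1 of 24 h (0.0361). The probe was dim, with 50% or more of its Cy3 pixels brighter than background plus 2 SD on 7 of 24 arrays. The gclm probe reached this share on 15 of 24 arrays.

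Ordered by mean, the groups of each gene formed steps of at most 1.90 times their standard error between neighbours. Sorting the groups keeps such steps small, so their size cannot decide whether a gene had a break. For gstp1.2 the order ran from HgCl2 at 8 h (0.31) through the 4 control groups (0.71 to 0.89) to HgCl2 at 24 h (1.70), 48 h (2.26) and 96 h (2.65). The widest step lay between the highest control group and HgCl2 at 24 h, whose arrays did not overlap. For gclm the 4 control groups came lowest (-0.74 to -0.55), then HgCl2 at 8 h (-0.17), 24 h (0.51), 96 h (0.56) and 48 h (1.29), with all neighbours overlapping. For gstt1b, HgCl2 at 8 h was lowest (-0.43), apart from HgCl2 at 24 h (0.14), and the controls of 96 h were highest (0.92). The groups of gclc ran from -0.13 (control, 24 h) to 0.39 (HgCl2, 24 h) and those of gsto1 from -0.45 (HgCl2, 48 h) to 0.21 (control, 48 h).

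Whether the member genes responded differently was tested on the difference between 2 genes' effects, averaged over the times. The test was an exact two-sided permutation of the treatment labels within each time (160000 relabellings) for 10 pairs. Each transferase class had 1 gene with 1 probe here, so the pairs compare genes and not whole classes. The subunits of glutamate-cysteine ligase differed, since the effect on gclm exceeded that on gclc by 0.97 (adjusted p = 0.00544, exact permutation). The pi-class gene gstp1.2 exceeded the theta-class gstt1b by 1.36 (adjusted p = 0.00025) and the omega-class gsto1 by 1.19 (adjusted p = 0.00817), also in exact permutation tests. Between gclm and gstp1.2 the effects differed by 0.26 (adjusted p = 0.424, exact permutation), and between gsto1 and gstt1b by 0.17 (adjusted p = 0.581, exact permutation). Of the 10 pairs, 8 passed, and 3 of these 8 involve gstt1b, whose direction depended on the channel.

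These pair tests were repeated in Cy5 alone, where 3 of the 10 pairs passed. gclm exceeded gclc by 1.54 (adjusted p = 0.00175, exact permutation), gsto1 by 1.6 (adjusted p = 0.0059) and gstt1b by 1.03 (adjusted p = 0.0207, exact permutation). The pair gstp1.2 and gstt1b gave 0.29 (adjusted p = 0.168, exact permutation), and the pair gstp1.2 and gsto1 gave 0.86 (adjusted p = 0.0831, exact permutation). Between gclc and gsto1 the difference was 0.48 in the ratio (adjusted p = 0.000905, exact permutation) and 0.06 in Cy5 alone (adjusted p = 0.748). The difference between gclm and gclc thus passed on both scales, and those between gstp1.2 and the other transferases passed in the ratio but not in Cy5 alone. For 2 pairs with gstt1b the sign turned: gclc minus gstt1b was 0.65 in the ratio (adjusted p = 0.0149) and -0.51 in Cy5 alone (adjusted p = 0.0807), and gsto1 minus gstt1b was 0.17 and -0.57 (adjusted p = 0.126, exact permutation).

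Of the genes around the members, 25 from lists on cysteine and NADPH supply, glutathione use and turnover, thiol export and Nrf2 had a probe with 1 gene symbol. The paper also reports pgd, keap1 and sqstm1 from these arrays, which were listed but had no such probe here. Of the 25 genes, 1 rose and 0 fell at 8 h, 8 rose and 1 fell at 24 h, 6 rose and 0 fell at 48 h, and 6 rose and 0 fell at 96 h. Of all probes, 0.624%, 6.61%, 5.29% and 7.48% were called higher at these times and 0.349%, 4.23%, 3.37% and 5.42% lower. The median difference of the 25 genes was -0.09, 0.22, 0.26 and 0.46, and that of all probes lay between 0.00 and 0.01. These counts moved with single arrays and settings. Without 1 array in turn the number called was 0 at 8 h, 3 to 8 at 24 h, and 3 to 6 at 48 h and at 96 h. The 3 were reached without control replicate 3 or HgCl2 replicate 2 of 24 h, control replicate 2 or HgCl2 replicate 1 of 48 h, and control replicate 1 or HgCl2 replicate 3 of 96 h. At 24 h it was 4 in Cy5 alone and with the authors' value table, 5 with no background correction and 3 with the 6 arrays alone. The methods' t-test called 0, 1, 0 and 2 at the 4 times.

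Cysteine, the limiting amino acid of glutathione, is supplied in the liver from methionine. On this route mat1a, which makes S-adenosylmethionine, rose at 24 h (0.94 ± 0.30, adjusted p = 0.0437, limma), 48 h (1.08, adjusted p = 0.0272) and 96 h (1.52, adjusted p = 0.00194). cth, the cystathionine gamma-lyase that releases cysteine, rose at 48 h (2.37 ± 0.46, adjusted p = 0.00313) and 96 h (1.78, adjusted p = 0.0146). Its exposed livers read 2.03, 2.3 and 0.59 at 48 h against -0.82, -0.48 and -0.88 in controls. The amino acid transporter subunits went apart at 24 h, with slc3a2b higher (1.03 ± 0.25, adjusted p = 0.0115) and slc3a2a lower (-0.57 ± 0.18, adjusted p = 0.0421). In Cy5 alone mat1a passed at none of these times (adjusted p of 0.18 to 0.288).

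On the side of breakdown, chac1, which cleaves glutathione inside the cell, rose at all 4 times. Its exposed livers read -0.79, 0.07 and -0.40 at 8 h and its controls -2.11, -2.06 and -1.81, without overlap. The differences were 1.62 ± 0.35 at 8 h (adjusted p = 0.0297, limma), 1.88 at 24 h (0.00177), 1.68 at 48 h (0.00525) and 1.22 at 96 h (0.0259). At 8 h, when no member passed, chac1 was the 1 gene of the 25 that did, and this call was lost without any 1 of the 6 arrays (adjusted p between 0.0526 and 0.126), with the 6 arrays of that time alone (0.0971) and in Cy5 alone (0.85, adjusted p = 0.183). The chac1 calls of 24 and 48 h were kept without any 1 array.

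Among the other users of glutathione, 7 genes had a probe and 1 was called at single times. This was mgst3b, a membrane-bound microsomal transferase outside the rule, which rose at 24 h (2.38 ± 0.51, adjusted p = 0.00462), 48 h (3.06, adjusted p = 0.000798) and 96 h (2.47, adjusted p = 0.00286, limma). Its exposed livers read 2.38, 2.42 and 2.6 at 24 h and its controls 0.17, -0.04 and 0.15. Control replicate 1 of 8 h stood at 2.72, beside -0.10 and -0.16 in the other controls of that time, the same array that was high for gstp1.2. gstcd, whose product carries a transferase-like domain, was not called (average -0.10, adjusted p = 0.426).

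Export had 2 genes with a 1-symbol probe and Nrf2 regulators had 3, without keap1 or sqstm1. In each of these lists 1 gene was called at single times. The transporter abcc4 rose at 24 h (1.23 ± 0.33, adjusted p = 0.0205) and 48 h (1.11, adjusted p = 0.0414). The regulator maff, a small Maf protein that pairs with Nrf2, rose at 24 h (0.94 ± 0.26, adjusted p = 0.0235) and 96 h (0.92, adjusted p = 0.0237, limma). Other Nrf2 targets on the array numbered 5, and read by their brightest probes 1 of them was called higher at 24, 48 and 96 h and 0 lower. Their median difference was -0.42 at 8 h, -0.21 at 24 h, 0.20 at 48 h and 0.45 at 96 h. The 1 called was the thioredoxin reductase gene txnrd3, at 24 h (2.61 ± 0.60, adjusted p = 0.00805), 48 h (2.12, adjusted p = 0.0334) and 96 h (2.43, adjusted p = 0.0108, limma). The brighter of 2 probes of nqo1, a quinone reductase, gave -0.20 at 48 h (adjusted p = 0.66) and 0.28 at 96 h (adjusted p = 0.473), while the dimmer probe gave 1.14 (adjusted p = 0.00735) and 0.83 (adjusted p = 0.0321), so the probes disagreed. At 24 h maff was 0.43 with no background correction (adjusted p = 0.169) and 0.67 in Cy5 alone (adjusted p = 0.135), and abcc4 was also lost in Cy5 alone (adjusted p = 0.0621). At 48 h abcc4 was lost with a replicate block (adjusted p = 0.0577). Of the 19 called differences of the 7 pathway genes named by the rule, 8 were kept without any 1 of their 6 arrays, which were those of mgst3b at its 3 times, of chac1 at 24 and 48 h, of cth at 48 h, of mat1a at 96 h and of txnrd3 at 24 h. The others were lost without at least 1 array, with adjusted p of up to 0.234 (abcc4 at 48 h, without HgCl2 replicate 1). Of the same 19, 13 were kept in Cy5 alone, 15 with the authors' value table, 16 with no background correction, 16 with scale normalisation, 13 with the 6 arrays of a time alone, 18 with median centring, 18 with a replicate block and 3 with the methods' t-test.

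**Figure D4:**
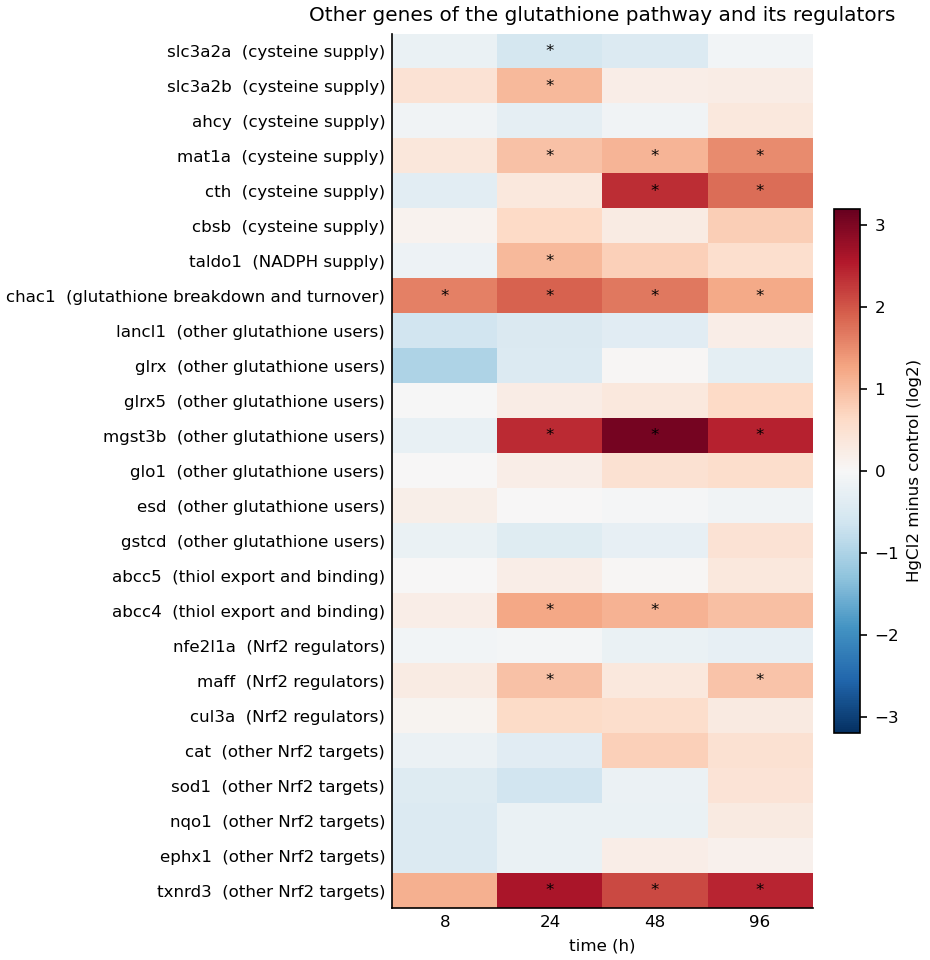
Difference between HgCl2 and control (log2 ratio, colour) at 8, 24, 48 and 96 h for 25 genes around glutathione, with the list of each gene in parentheses. A star marks an adjusted p under 0.05. Stars number 1, 9, 6 and 6 at the 4 times, and all of them but that of slc3a2a at 24 h stand on higher values.

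The genes whose pattern over the 24 arrays was most like that of a member called at 2 times were sought among 5911 named probes. For gclm these were ifi44a8, of an interferon-induced family (Pearson r = 0.894, Spearman rho = 0.781), and marchf5l, related to a ubiquitin ligase of mitochondria (r = 0.882, rho = 0.758). For gstp1.2 these were pcxb, a pyruvate carboxylase gene (r = 0.970, rho = 0.902), and mgst3b (r = 0.888, rho = 0.771). After the group means were taken out, r was 0.655 and 0.653 for the partners of gclm, 0.965 for pcxb and 0.877 for mgst3b. These arrays share their treatment groups and their normalisation, so the coefficients describe likeness only. The probes of gstp1.2 and pcxb carry identifiers 2 apart, and the identifiers around them belong to ubr4 (r = 0.328 with gstp1.2), irx7 (0.0055) and myca (-0.354). Whether the probes annotated to gstp1.2 and pcxb read 2 different transcripts was not tested, so the values given for either gene rest on that annotation.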

How the data were processed

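The deposited data were GenePix scanner files of 24 arrays, with foreground and background intensity per spot in both dyes, and with the percent of spot pixels above background plus 2 SD, as deposited by the authors from the scanner and not yet normalized per the file headers. The authors' value table, deposited as log2 values, equals log2 ratios of background-subtracted means shifted by 1 constant per array, without the lowess step their methods state. It was used as an alternative. From the intensities, R 4.3.3 and limma 3.58.1 computed normexp background correction (offset 50), loess per array with 172 beta-actin spots at weight 0, and 8 group means (16 residual degrees of freedom) over 16340 probes, checked on simulated data. Single channels were taken after loess and Aquantile. Gene symbols came from a platform table updated through RefSeq identifiers. Lists used each gene's brightest probe. All members were named, with pathway genes called at 2 or more times and, for members called at 2 or more, the 2 genes most alike. slc3a2a, slc3a2b, gstcd and nqo1 were named after their values were seen. Members and lists were chosen with earlier results of these data known. The pair tests between members, the Cy5-only reading and scale normalisation between arrays were chosen after seeing the data. Other alternatives were no background correction, median centring, dim probes left out, a replicate block, the 6 arrays of a time alone, the methods' t-test and each array left out. The methods' t-test was held here to an adjusted p under 0.05. The paper itself selected genes at each time at a p under 0.05, and its ANOVA list at a false discovery rate under 0.05. The number of arrays limits the precision. Figures were drawn with matplotlib 3.10.9 (Python 3.11.15). Probe sequences were not used here.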

Additional observations from a re-analysis of the deposited data

Results flagged for a closer look

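The Cy3 channel carried the same reference RNA on every array by design, yet it differed between exposed and control arrays for 2 members. For gclc it was lower on the exposed arrays of 8 h by a log2 difference of -0.70 (adjusted p = 0.0463, limma), beside 12.7% of all probes called in that channel, and the Cy5 difference was -0.57 (adjusted p = 0.059), so that both channels lay lower while the ratio differed by 0.13. For gstt1b it was higher on the exposed arrays of 96 h by 2.05 (adjusted p = 0.000527), beside 13.6% of all probes, and the Cy5 difference was 1.43. The control arrays of 96 h had a mean gstt1b Cy3 level of 9.31, against 10.65 to 10.91 at the earlier control times. Of the controls of 48 h, replicate 3 stood low as well (9.58, against 11.25 and 11.12), so the low level was not limited to 96 h. The cause of these Cy3 differences was not tested.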

How the results depend on the processing

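The count of members called moved with the settings. At 8 h it was 1 in place of 0 with the authors' value table and with scale normalisation between arrays. At 24 h it was 0 in place of 1 with no background correction, median centring, the authors' value table, Cy5 alone, scale normalisation, a replicate block and the methods' t-test, and 0 to 1 without 1 array. With the 6 arrays of 24 h alone it stayed at 1, but the gene was gstp1.2 (adjusted p = 0.0474) and gclc was at 0.155. At 48 h it was 1 in place of 2 with no background correction, the authors' value table, Cy5 alone, scale normalisation, a replicate block and the 6 arrays alone, 0 with the methods' t-test, and 1 to 2 without 1 array. At 96 h it was 1 in place of 2 with median centring, the authors' value table, scale normalisation, a replicate block, the 6 arrays alone and the methods' t-test, and 1 to 2 without 1 array. For the average it was 4 in place of 2 with dim probes left out (fewer probes tested, 3 higher and 1 lower), 3 with median centring, the authors' value table and scale normalisation (2 higher and 1 lower each), 3 in Cy5 alone and with the methods' t-test (all higher), and 2 to 4 without 1 array. For the change from 8 to 96 h it was 2 in place of 0 in Cy5 alone and 0 to 1 without 1 array, and for control times 1 in place of 0 in Cy5 alone. The F test over 8 groups gave 2 members, 3 in Cy5 alone and with dim probes left out, and 2 to 3 without 1 array. In Cy5 alone gstt1b turned from -0.62 to 1.43 at 96 h and from -0.44 to 0.48 in the average. Differences called under neither setting also turned. In Cy5 alone gclc was -0.57 at 8 h and -0.029 in the average, mat1a -0.94, maff -0.11 and marchf5l -0.82 at 8 h. With the authors' value table gclc was -0.045 at 48 h and gsto1 -0.041 at 8 h, and with no background correction marchf5l was -0.082 at 8 h. The change of gclc from 8 to 96 h (0.015) was -0.061 with no background correction, -0.092 with median centring, -0.055 with the authors' value table and -0.0086 with scale normalisation. Without 1 array it ran from -0.066 to 0.093. Without 1 array the 8 h differences ran from -0.14 to 0.74 for gclm, -1.01 to 0.20 for gstp1.2, -0.050 to 0.16 for gsto1, -0.068 to 0.74 for mat1a, -0.84 to 0.14 for cth, -0.72 to 0.72 for mgst3b and -0.97 to 0.32 for pcxb. At 24 h they ran from -0.17 to 0.066 for gstt1b, -0.47 to 0.022 for gsto1 and -0.032 to 0.93 for cth, and at 48 h from -0.14 to 0.25 for gclc and -0.27 to 0.58 for gstt1b. Among the members' own differences under other settings, 206 kept direction and side of the threshold, 22 no longer passed, 11 newly passed and 10 turned in sign. Without 1 array the numbers were 258, 16, 13 and 13.

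Replicate numbers did not pair the arrays. Residuals of arrays with the same number correlated at a median r of -0.0113 (-0.312 to 0.223, 84 pairs), and 1 of 24 arrays was closest to its own number. With the replicate block the counts were 0 at 24 h, 1 at 48 h and 1 at 96 h. Over all probes, from the earliest time to the latest, the methods' t-test called 1, 12, 2 and 706 at an adjusted p under 0.05, a threshold the paper did not state for it. The 6 arrays of a time alone called 0, 940, 900 and 1779, against 159, 1771, 1414 and 2108 in the main fit. Both settings use fewer arrays in each fit than the main fit does, and the cause of these differences was not tested.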
